A study of Mus musculus with 6 samples.

Results

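The amino acid transporter families SLC1, SLC3, SLC6, SLC7, SLC36, SLC38 and SLC43 were examined in RNA sequencing of unstimulated mouse bone marrow-derived macrophages (BMDMs), which are bone marrow cells cultured into macrophages. The members are protein-coding genes of the count table whose symbols start with *Slc1a*, *Slc3a*, *Slc6a*, *Slc7a*, *Slc36a*, *Slc38a* or *Slc43a* followed by a digit. They number 63 of the 40481 genes and of the 21534 protein-coding genes, with 7 members in SLC1, 2 in SLC3, 21 in SLC6, 15 in SLC7, 4 in SLC36, 11 in SLC38 and 3 in SLC43. The rule uses names and no measured value, and it was set with earlier results of these data known. One member, *Slc7a6os*, carries its name because it lies beside *Slc7a6* on the opposite strand and is not a carrier. The other 62 are counted as carriers here, among them the 2 SLC3 members, which are subunits of carriers.

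There were 3 wild-type and 3 *Scd2*-m/-m libraries, 1 for each sample. *Scd2*-m/-m mice have floxed *Scd2* alleles and the lysozyme M-Cre transgene, which deletes *Scd2*, a stearoyl-CoA desaturase gene, in myelomonocytic cells. The sources used here do not say whether the wild-type mice carried floxed alleles or Cre. The study used mice of both sexes aged 2 to 5 months, and neither the sex nor the age behind a given library is stated. All 6 cultures were grown in medium with 10% CMG-conditioned medium, differentiated for 5 to 6 days, then kept with 2% of that medium, and none received a stimulus. Nothing in the labels says that the libraries of a genotype came from separate animals, so the tests measure the spread between these samples, which may be technical.

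Cells import essential amino acids through these carriers and exchange them against others. In the heteromeric transporters a single-pass heavy chain, *Slc3a2* (4F2hc, CD98) or *Slc3a1*, is disulfide-linked to a light chain of the SLC7 family, which does the transport. Macrophages draw on arginine for nitric oxide and polyamines, on glutamine and branched-chain amino acids for growth, and on lysosomal carriers that report amino acid supply to the kinase complex mTORC1.

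Each library held from 46285176 to 57629638 counts. Levels are given as CPM, the counts of a gene per 1000000 counts of its library, adjusted by edgeR's TMM factors, and levels of different genes were compared only after division by exonic length (CPM per kb). A gene was called when the false discovery rate (FDR, Benjamini-Hochberg adjustment over the 14778 genes tested) of edgeR's quasi-likelihood test was below 0.05. The targeted gene *Scd2* was at 66.9, 77.8 and 62.7 CPM in wild-type libraries 1, 2 and 3 and at 59.5, 37.96 and 39.8 CPM in *Scd2*-m/-m libraries 1, 2 and 3, a mean of 66.2% of wild type (log2 fold change -0.59 ± 0.19 SE, edgeR FDR 0.1002). Without *Scd2*-m/-m library 1 the log2 fold change was -0.83 (edgeR FDR 8.87e-05), while leaving out any one of the other 5 libraries gave -0.48 to -0.66 with edgeR FDRs from 0.137 to 0.277. All 9 macrophage markers were detected, and their summed level was 37800 to 38700 CPM in wild-type and 21700 to 22200 CPM in *Scd2*-m/-m libraries, with 5 markers lower and 1 higher. *Lyz2*, the lysozyme M gene, made the most of that difference, with a log2 fold change of -1.33. The Cre transgene of the *Scd2*-m/-m mice is named after this gene, and its part in the lower *Lyz2* level was not tested. Of 13 cell division genes 12 were higher, and their sum moved from 152 to 162 CPM up to 269 to 286 CPM. The summed markers of monocytes and progenitors were at 42.0 to 59.6 and 100 to 159 CPM, and those of B cells at 2.14 to 3.77 and 5.25 to 6.95 CPM. Those of dendritic cells stood at 0.947 to 1.36 and 1.75 to 2.96 CPM. Of 9 tested neutrophil markers 6 were higher and 1 lower, with overlapping sums of 171 to 181 and 157 to 188 CPM. Markers of T and NK cells summed to at most 0.103 CPM in any library. Apart from the neutrophil sums, which overlapped, and the T and NK cell markers, these sums move between the genotypes together with the results that follow. The part of any of these lists in those results was not tested. In bulk RNA, fewer cells that express a gene and less of its RNA per cell cannot be told apart.

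The transporter families held genes that fell and genes that rose in *Scd2*-m/-m BMDMs. The heavy chain *Slc3a2*, its light chains *Slc7a7* and *Slc7a6*, the arginine carrier *Slc7a2*, the branched-chain amino acid carrier *Slc43a2* and the neighbour gene *Slc7a6os* fell. The glutamate carrier *Slc1a3*, the GABA carrier *Slc6a13*, *Slc7a4* and the nucleobase carrier *Slc43a3* rose. These were 10 of the 33 members that passed the filter on low counts (30.3%), 4 higher and 6 lower. Over all genes tested the share called was 17.5%, with 9.65% higher and 7.84% lower. The genotypes did not overlap for 14 tested members (42.4%), beside 34.9% of all genes tested. On the log2 scale the tested members had a median fold change of -0.00147, beside 0.00387 for all genes. By family the calls were 5 of 11 tested in SLC7, 2 of 2 in SLC43, 1 of 1 in SLC3, 1 of 4 in SLC1 and 1 of 6 in SLC6, with 0 of 3 in SLC36 and 0 of 6 in SLC38. The SLC7 calls include *Slc7a6os*, which is not a carrier. Without *Scd2*-m/-m library 2 the calls dropped to 6, of which 1 was higher, and without wild-type library 2 there were 2 higher. The 6 genes *Slc3a2*, *Slc7a7*, *Slc7a6*, *Slc7a2*, *Slc43a2* and *Slc43a3* were called in the main test and in each of its 16 alternative fits.

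**Figure D1:**
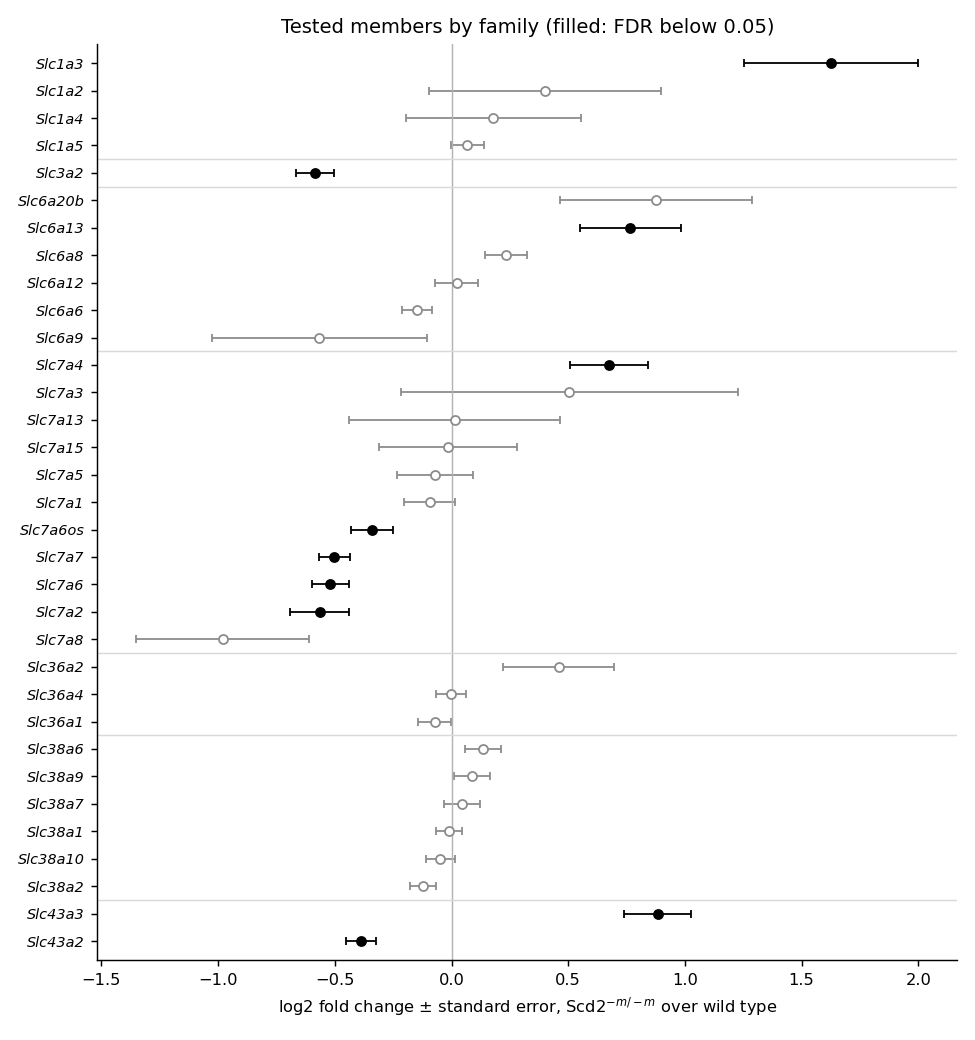
Log2 fold change (x axis, *Scd2*-m/-m over wild type, bars show the standard error) of the 33 tested members, grouped by family from SLC1 at the top to SLC43 at the bottom and ordered within each family, with filled points for an FDR below 0.05. The 10 filled points lie on both sides of 0, from -0.58 for *Slc3a2* to 1.63 for *Slc1a3*, and the open point furthest to the left is *Slc7a8* at -0.98.

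*Slc3a2* encodes the heavy chain that brings the light chains to the cell surface (ENSMUSG00000010095, chr19:8706882-8723369, minus strand, GRCm38). Its level was 299, 257 and 233 CPM in the wild-type libraries and 183, 175 and 168 CPM in the *Scd2*-m/-m libraries. Every *Scd2*-m/-m library lay below every wild-type library, and the mean was 66.7% of wild type. The log2 fold change was -0.58 ± 0.08 (SE, edgeR FDR 0.000219). The other heavy chain, *Slc3a1*, which partners a kidney and gut carrier of cystine, had between 0 and 10 counts in a library and was not tested.

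Of the light chains that pair with *Slc3a2*, *Slc7a7* and *Slc7a6* exchange cationic for neutral amino acids, while *Slc7a5* (LAT1) and *Slc7a8* (LAT2) exchange neutral amino acids. *Slc7a7* (ENSMUSG00000000958, chr14:54369442-54417780, minus strand) was at 54.9, 60.0 and 61.3 CPM in wild-type and 41.4, 39.6 and 43.3 CPM in *Scd2*-m/-m libraries. *Slc7a6* (ENSMUSG00000031904, chr8:106168857-106198706, plus strand) was at 22.6, 22.5 and 22.1 CPM in wild-type and 17.0, 15.7 and 14.2 CPM in *Scd2*-m/-m libraries. For neither gene did the genotypes overlap. The log2 fold changes were -0.50 ± 0.07 (SE, edgeR FDR 0.000145) for *Slc7a7* and -0.52 ± 0.08 (SE, edgeR FDR 0.000514) for *Slc7a6*. The ratio of *Slc7a7* to *Slc7a6*, from levels per kb, was 3.62 ± 0.247 (SD, n = 3) in wild-type BMDMs against 3.68 ± 0.448 in *Scd2*-m/-m BMDMs (two-sided exact permutation p = 0.8). *Slc7a7* overlaps the end of *Oxa1l*, a gene on the other strand whose log2 fold change was 0.07 (edgeR FDR 0.463).

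*Slc7a8* (ENSMUSG00000022180, chr14:54722209-54781946, minus strand) had the highest level per kb of the light chains and spread the most. It was at 525, 332 and 250.2 CPM in wild-type libraries 1, 2 and 3 and at 239, 179 and 143 CPM in *Scd2*-m/-m libraries 1, 2 and 3. The genotypes did not overlap, but wild-type library 3 stood only slightly above *Scd2*-m/-m library 1. The log2 fold change was -0.98 ± 0.37 (SE) and did not pass the test (edgeR FDR 0.171). Within a genotype the SD of its log2 level was 0.462, above 99.9% of the 8192 genes with a mean over 10 CPM, for which the median SD was 0.085. Without wild-type library 1 the log2 fold change was -0.64. *Slc7a5*, which in many dividing cells is the main leucine carrier, was low here, at 2.84, 3.30 and 2.87 CPM in wild-type and 3.15, 2.98 and 2.44 CPM in *Scd2*-m/-m libraries. Its genotypes overlapped (log2 fold change -0.07 ± 0.16 SE, edgeR FDR 0.816), and the sign turned without wild-type library 2 or without *Scd2*-m/-m library 3. The remaining tested light chains were *Slc7a13* and *Slc7a15*, at 0.252 ± 0.087 and 0.865 ± 0.289 CPM (SD, n = 3) in wild-type BMDMs, with overlapping genotypes and FDRs of 0.991 and 0.983.

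Per kb of exon, the 4 light chains *Slc7a5*, *Slc7a6*, *Slc7a7* and *Slc7a8* together were at 97.2 ± 27.2 in wild-type and 54.1 ± 9.81 CPM per kb in *Scd2*-m/-m BMDMs. The sum did not overlap between the genotypes (127, 90.3 and 74.1 against 64.7, 52.0 and 45.4). The two-sided exact permutation p was 0.1, the smallest that 3 against 3 libraries can give, and 0.167 after adjustment over the 10 ratios and sums computed. Heavy chain transcript over light chain transcripts was 0.788 ± 0.114 in wild-type BMDMs against 0.935 ± 0.126 in *Scd2*-m/-m BMDMs, with overlapping libraries (exact permutation p = 0.3, adjusted 0.375). *Slc7a8* made 74.5% ± 7.55 of the light chain sum in wild-type BMDMs against 68.5% ± 5.35 in *Scd2*-m/-m BMDMs (exact permutation p = 0.5, adjusted 0.556). A difference in the ratio of heavy to light chain transcripts was not detectable with these libraries.

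**Figure D2:**
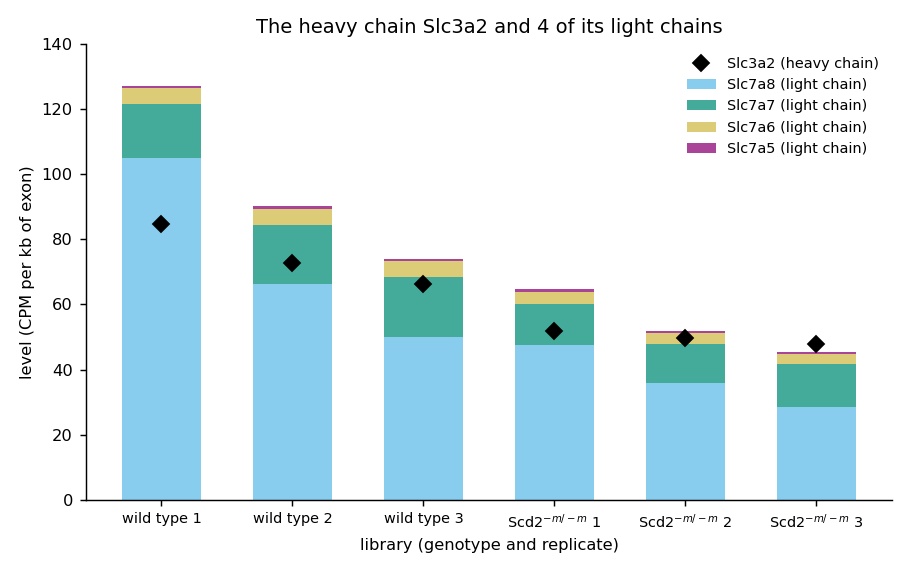
Level per kb of exon (y axis, CPM per kb) of *Slc3a2* (black diamond) and of 4 light chains (stacked bars) in each of the 6 libraries. The diamonds fall from between 66.1 and 84.7 in wild-type libraries to between 47.7 and 51.8 in *Scd2*-m/-m libraries, and the bars, most of them *Slc7a8*, from between 74.1 and 127 to between 45.4 and 64.7.

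The SLC43 family carries neutral amino acids by facilitated diffusion. *Slc43a2* (LAT4, a carrier of branched-chain amino acids, phenylalanine and methionine, ENSMUSG00000038178, chr11:75531694-75577575, plus strand) was at 1427, 1356 and 1366 CPM in wild-type and 1106, 1053 and 1014 CPM in *Scd2*-m/-m libraries. *Slc43a3* (ENSMUSG00000027074, chr2:84936579-84958509, plus strand), whose product is known to move purine nucleobases rather than amino acids, was at 4.23, 3.88 and 3.50 CPM in wild-type and 8.33, 7.10 and 5.99 CPM in *Scd2*-m/-m libraries. The genotypes overlapped for neither gene, and the directions were opposite. *Slc43a2* had a log2 fold change of -0.39 ± 0.06 (SE, edgeR FDR 0.000857) and *Slc43a3* of 0.88 ± 0.14 (SE, edgeR FDR 0.000728). The ratio of *Slc43a2* to *Slc43a3*, per kb, was 159.6 ± 12.3 (SD, n = 3) in wild-type BMDMs against 66.7 ± 8.18 in *Scd2*-m/-m BMDMs (exact permutation p = 0.1, adjusted 0.167). *Slc43a1* had at most 5 counts in a library and was not tested.

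Among the cationic carriers, *Slc7a1* is the general arginine and lysine carrier and *Slc7a2* the inducible arginine carrier of activated macrophages. *Slc7a2* (ENSMUSG00000031596, chr8:40862396-40922308, plus strand) was at 7.55, 7.26 and 6.32 CPM in wild-type and 4.68, 4.32 and 5.26 CPM in *Scd2*-m/-m libraries, without overlap (log2 fold change -0.57 ± 0.12 SE, edgeR FDR 0.00630). *Slc7a1* was at 10.7, 10.5 and 9.31 CPM in wild-type and 10.1, 8.18 and 10.2 CPM in *Scd2*-m/-m libraries, which overlapped (log2 fold change -0.09 ± 0.11 SE, edgeR FDR 0.620). *Slc7a2* over *Slc7a1*, per kb, was 0.875 ± 0.0175 (SD, n = 3) in wild-type BMDMs against 0.633 ± 0.0442 in *Scd2*-m/-m BMDMs, lower in all 3 *Scd2*-m/-m libraries (exact permutation p = 0.1, adjusted 0.167). *Slc7a4* (ENSMUSG00000022756, chr16:17572018-17583214, minus strand), a relative of these carriers whose substrate is not settled, was at 2.74, 2.02 and 2.48 CPM in wild-type and 4.01, 4.20 and 3.37 CPM in *Scd2*-m/-m libraries. It did not overlap either (log2 fold change 0.68 ± 0.17 SE, edgeR FDR 0.0120), and the call was lost without wild-type library 2 (FDR 0.0671) or *Scd2*-m/-m library 2 (FDR 0.0707). *Slc7a4* overlaps *P2rx6*, a channel gene on the opposite strand at 0.239 ± 0.0505 and 0.530 ± 0.0860 CPM (log2 fold change 1.14, edgeR FDR 0.0524), and the sources used here do not say whether the counting used strand. *Slc7a3*, a cationic carrier of brain, was under 0.33 CPM in every library.

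*Slc7a6os* and *Slc7a6* lie 2010 bases apart on chromosome 8 on opposite strands. *Slc7a6os* (ENSMUSG00000033106, chr8:106200717-106210935, minus strand) was at 15.1, 16.1 and 13.5 CPM in wild-type and 11.6, 11.5 and 12.1 CPM in *Scd2*-m/-m libraries. The genotypes did not overlap (log2 fold change -0.34 ± 0.09 SE, edgeR FDR 0.0185), and the call was lost without wild-type library 2 (FDR 0.118) or *Scd2*-m/-m library 2 (FDR 0.0891). Without it, 9 of 32 tested carriers were called (28.1%).

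The SLC1 family holds the glutamate carriers and a pair of neutral amino acid exchangers. *Slc1a3* (GLAST, a sodium-coupled glutamate carrier best known from astrocytes, ENSMUSG00000005360, chr15:8634124-8710764, minus strand) was at 0.161, 0.434 and 0.275 CPM in wild-type and 0.860, 1.05 and 0.774 CPM in *Scd2*-m/-m libraries. These levels rest on 8, 20 and 14 counts against 48, 53 and 45. The groups did not overlap, and the mean was 3.09 times that of wild type (log2 fold change 1.63 ± 0.37 SE, edgeR FDR 0.00822), while without *Scd2*-m/-m library 2 the FDR was 0.0515. *Slc1a5* (ASCT2), a main glutamine carrier of growing cells and the SLC1 member with the highest level per kb, was at 44.9, 40.5 and 40.4 CPM in wild-type and 46.8, 43.4 and 41.6 CPM in *Scd2*-m/-m libraries. Its genotypes overlapped (log2 fold change 0.07 ± 0.07 SE, edgeR FDR 0.561). *Slc1a2* and *Slc1a4* were below 0.63 CPM in every library and did not pass the test.

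The sodium- and chloride-coupled SLC6 family moves taurine, creatine, betaine, GABA, glycine and monoamines. *Slc6a6*, the taurine carrier, had the highest level per kb of all members. It was at 2380.3, 2536 and 2582 CPM in wild-type and 2317, 2183 and 2269.6 CPM in *Scd2*-m/-m libraries. The groups did not overlap, but the mean was 90.3% of wild type and the difference did not pass the test (log2 fold change -0.15 ± 0.07 SE, edgeR FDR 0.147). *Slc6a13* (ENSMUSG00000030108, chr6:121300227-121337733, plus strand), a carrier of GABA and taurine, was at 1.65, 1.41 and 1.20 CPM in wild-type and 2.88, 2.55 and 1.82 CPM in *Scd2*-m/-m libraries. The genotypes did not overlap (log2 fold change 0.77 ± 0.22 SE, edgeR FDR 0.0257). This call was the least stable of the 10, lost without wild-type library 2 (FDR 0.0842) or 3 (FDR 0.0798) and without *Scd2*-m/-m library 1 (FDR 0.0979) or 2 (FDR 0.1). Of the other tested SLC6 members, the creatine carrier *Slc6a8*, the betaine carrier *Slc6a12*, the glycine carrier *Slc6a9* and *Slc6a20b*, none passed the test, with FDRs from 0.09997 to 0.905. *Slc6a8*, at the lower end of that range, was called in 4 of the 16 alternative fits, among them the fit without wild-type library 1 (log2 fold change 0.35, edgeR FDR 0.00445).

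**Figure D3:**
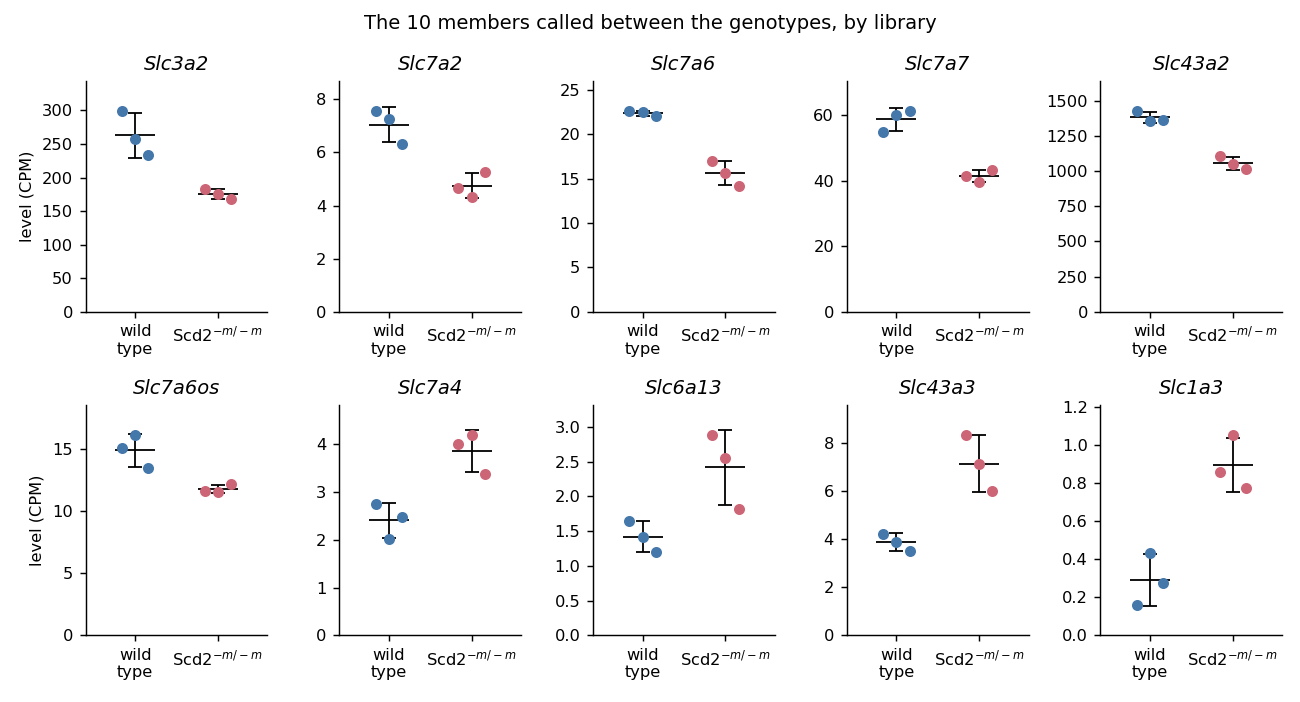
Level (y axis, CPM, from 0) of the 10 called members in each library, with blue points for wild-type and red points for *Scd2*-m/-m libraries, and with the mean and SD (n = 3) drawn in black. In none of the 10 panels do the points of the genotypes overlap, with *Slc43a2* at 1014 to 1427 CPM at one end and *Slc1a3* at 0.161 to 1.05 CPM at the other.

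The proton-coupled SLC36 carriers and the sodium-coupled SLC38 carriers, several of which sit on lysosomes or supply glutamine, gave no call with edgeR, DESeq2 or limma-voom, and 1 of their 9 tested members, *Slc38a2*, had an unadjusted p below 0.05. *Slc36a1*, a lysosomal carrier of small neutral amino acids, was at 125, 151 and 141 CPM in wild-type and 134, 136 and 127 CPM in *Scd2*-m/-m libraries (log2 fold change -0.07 ± 0.07 SE, edgeR FDR 0.545). *Slc38a10*, the SLC38 member with the highest level per kb, was at 156, 146 and 154 CPM in wild-type and 151, 153 and 137 CPM in *Scd2*-m/-m libraries (log2 fold change -0.05 ± 0.06 SE, edgeR FDR 0.653). The libraries of the genotypes overlapped for both. *Slc38a2*, a glutamine and alanine carrier that starved cells induce, was the only member of these families whose genotypes did not overlap. It was at 194, 186 and 190.3 CPM in wild-type and 181, 173 and 169.8 CPM in *Scd2*-m/-m libraries and did not pass the test (log2 fold change -0.12 ± 0.06 SE, edgeR FDR 0.156). The lysosomal carriers *Slc38a7*, which exports glutamine, and *Slc38a9*, which senses arginine for mTORC1, had log2 fold changes of 0.04 ± 0.08 and 0.09 ± 0.08 (SE, edgeR FDRs 0.744 and 0.482). Across these 9 tested members the standard error of the log2 fold change was between 0.06 and 0.24, and it was highest for *Slc36a2*, a carrier at 1.59 ± 0.511 CPM in wild-type BMDMs.

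Ordered by level per kb, the tested members covered about 4 orders of magnitude. *Slc6a6* led at 295.5 ± 12.5 in wild-type and 267 ± 8.07 CPM per kb in *Scd2*-m/-m BMDMs (SD, n = 3), followed by *Slc43a2* at 138 ± 3.85 and 105 ± 4.59. *Slc3a2* at 74.5 ± 9.42 and *Slc7a8* at 73.8 ± 28.2 came next and could not be ordered in wild-type libraries, where their values overlapped. They did not overlap in *Scd2*-m/-m libraries, at 49.7 ± 2.05 and 37.4 ± 9.63, but the margin was too small to order them there. *Slc36a1* and *Slc38a10* overlapped each other in both genotypes at 22.9 to 24.7 and so did *Slc38a2*, *Slc38a7*, *Slc6a8* and *Slc6a12*, each with the next, at 15.3 to 21.5 in wild-type BMDMs. The summed level of the 62 carriers was 767 ± 27.7 CPM per kb in wild-type BMDMs against 641 ± 27.4 in *Scd2*-m/-m BMDMs, without overlap (exact permutation p = 0.1, adjusted 0.167). The 4 leading carriers made 75.8% ± 0.999 of it in wild-type BMDMs against 71.7% ± 0.392 in *Scd2*-m/-m BMDMs. *Slc6a6* alone made 38.6% ± 2.97 and 41.7% ± 1.36, and these shares overlapped (exact permutation p = 0.3, adjusted 0.375).

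**Figure D4:**
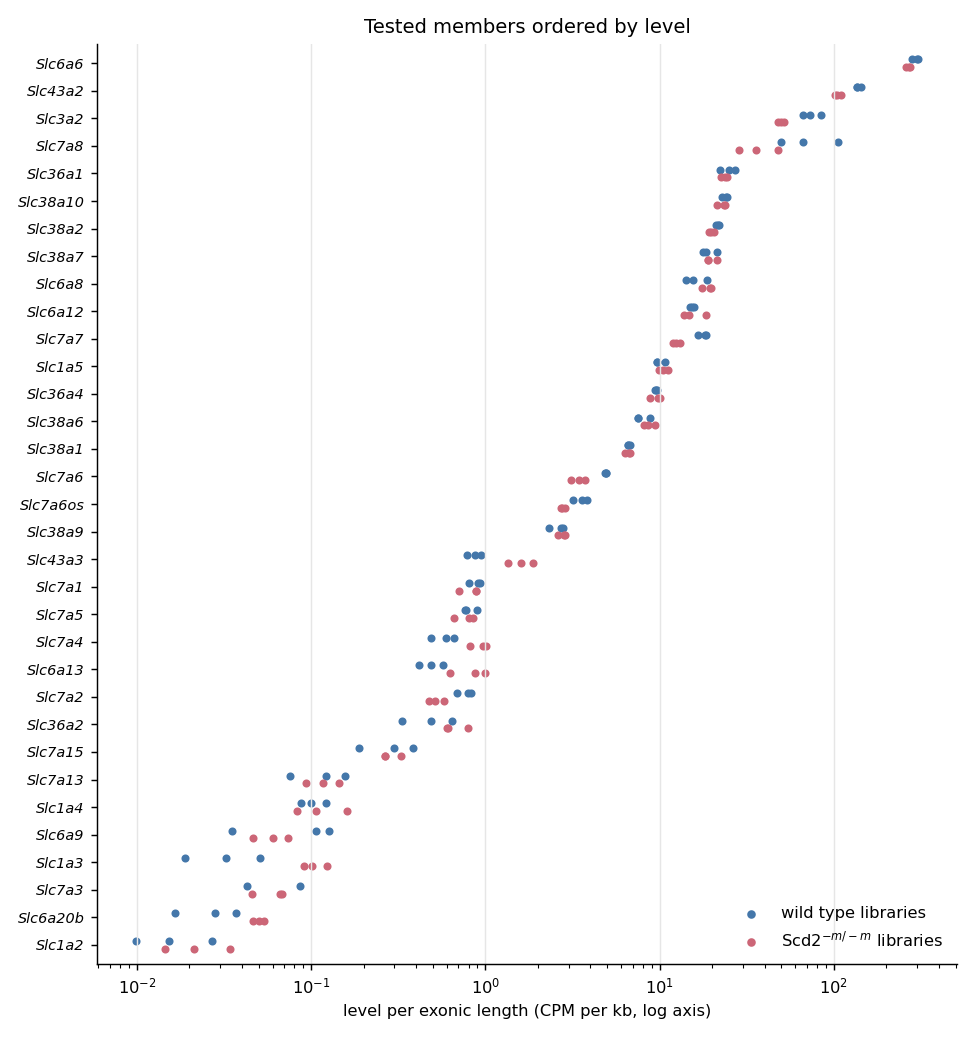
Level per kb of exon (x axis, CPM per kb, log scale) of the 33 tested members in wild-type (blue) and *Scd2*-m/-m (red) libraries, ordered by the mean over all 6 libraries. *Slc6a6*, *Slc43a2*, *Slc3a2* and *Slc7a8* lead, and *Slc1a2* is lowest at 0.0203 on average. The value 0 of *Slc7a3* in wild-type library 3 cannot be drawn on this axis.

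The other 30 members did not pass the filter on low counts. Of these, 3 (*Slc1a6*, *Slc7a10* and *Slc7a12*) had 0 counts in all 6 libraries, and no member of the 30 exceeded 18 counts in a library or 39 over all 6. They include 15 of the 21 SLC6 members, among them the carriers of noradrenaline (*Slc6a2*), dopamine (*Slc6a3*) and serotonin (*Slc6a4*), each with at most 4 counts in a library. The intestinal and renal carriers *Slc3a1*, *Slc7a9*, *Slc6a19* and *Slc6a18* had at most 10. A difference between the genotypes was not detectable at this depth for these genes.

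The promoter stretches of 6 called members are given to show the sequence next to which the members that moved are transcribed. They come from RefSeq promoter windows on GRCm38.p6, run 5′ to 3′ on the strand of the gene, and span 130 bases before to 20 bases after the annotated start. RefSeq windows were found for 7 of the 10 called members and not for *Slc7a2*, *Slc7a4* or *Slc43a3*. Capitals mark matches, on either strand, to 4 motifs: TGATGNAA (the composite element bound by ATF4 with C/EBP factors), CACGTG (the E-box bound by TFE3 and MYC), TGACGT (the core bound by CREB and ATF factors) and GAGGAA (the core bound by PU.1). *Slc7a7* is at chr14:54417925-54418074 (minus strand, the most upstream of 5 RefSeq starts), *Slc3a2* at chr19:8713878-8714027 (minus strand, inside the gene as the longer GENCODE model draws it) and *Slc43a2* at chr11:75531564-75531713 (plus strand). *Slc7a6* is at chr8:106168724-106168873 (plus strand), *Slc7a6os* at chr8:106210914-106211063 (minus strand) and the risen *Slc1a3* at chr15:8710788-8710937 (minus strand).
Slc7a7: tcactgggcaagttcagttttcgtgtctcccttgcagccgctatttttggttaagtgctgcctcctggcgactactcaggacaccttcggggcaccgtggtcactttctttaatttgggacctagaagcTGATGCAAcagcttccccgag
Slc3a2: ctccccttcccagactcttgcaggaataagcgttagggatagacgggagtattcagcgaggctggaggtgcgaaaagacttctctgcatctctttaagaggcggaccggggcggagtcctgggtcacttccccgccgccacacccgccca
Slc43a2: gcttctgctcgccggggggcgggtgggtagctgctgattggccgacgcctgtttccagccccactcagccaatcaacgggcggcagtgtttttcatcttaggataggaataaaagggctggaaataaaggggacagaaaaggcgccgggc
Slc7a6: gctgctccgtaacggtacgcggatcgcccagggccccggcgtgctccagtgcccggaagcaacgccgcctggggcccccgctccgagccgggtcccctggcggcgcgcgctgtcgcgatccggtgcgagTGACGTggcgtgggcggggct
Slc7a6os: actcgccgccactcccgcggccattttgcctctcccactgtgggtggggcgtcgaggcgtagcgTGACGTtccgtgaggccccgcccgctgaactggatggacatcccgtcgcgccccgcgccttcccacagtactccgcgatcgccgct
Slc1a3: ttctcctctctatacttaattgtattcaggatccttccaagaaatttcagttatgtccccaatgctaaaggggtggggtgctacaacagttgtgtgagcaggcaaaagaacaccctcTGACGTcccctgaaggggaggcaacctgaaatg
*Slc7a7* held TGATGCAA from 1 base before its start, *Slc7a6* held TGACGT at the same place, *Slc7a6os* 66 bases and *Slc1a3* 13 bases before the start. *Slc3a2* and *Slc43a2* showed no match in these stretches. The risen *Slc6a13*, whose stretch is not printed, had no match in the whole window of its most upstream start. Further upstream in the window, *Slc43a2* had GAGGAA 165 bases and *Slc7a7* a second match to TGATGNAA 141 bases before the start. In the whole windows of 250 bases before to 50 after, TGATGNAA occurred in 3.97% of all 32851 RefSeq promoters, CACGTG in 7.15%, TGACGT in 7.51% and GAGGAA in 28.3%. Of the 38 promoters of tested members they occurred in 3, 2, 6 and 11, and of the 11 promoters of members that fell in 2, 0, 3 and 4. These are counts of annotated starts and not of genes. Of the 11, *Slc7a7* gave 5, and *Slc7a6* and *Slc43a2* gave 2 each. A match is a run of letters and not a measured binding site.

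The other genes of amino acid supply and use were read from lists, whose counts stand beside 17.5% of all genes called (9.65% higher and 7.84% lower). Of 22 matched carriers outside these families 19 were tested, with 3 higher and 1 lower (21.1% called) and a median log2 fold change of -0.02. *Slc15a3*, a lysosomal carrier of histidine and peptides, fell by 0.50 ± 0.11 (SE, edgeR FDR 0.0135) on the log2 scale. Its relative *Slc15a4* rose by 0.24 ± 0.06 (edgeR FDR 0.0102), the mitochondrial aspartate-glutamate carrier *Slc25a13* by 0.35 ± 0.10 (edgeR FDR 0.0221) and the lysosomal cysteine carrier *Mfsd12* by 0.29 ± 0.07 (edgeR FDR 0.0116). Of 33 genes of amino acid sensing by mTORC1, 6 were higher and 3 lower (27.3% called), with a median of -0.02. The Rag GTPase gene *Rragd* moved from 6.68 ± 1.05 to 12.4 ± 1.23 CPM (SD, n = 3, log2 fold change 0.89 ± 0.12 SE, edgeR FDR 0.000246). *Fnip2*, a folliculin partner, rose by 0.68 ± 0.08 (edgeR FDR 8.26e-05), the S-adenosylmethionine sensor *Bmt2* by 0.44 ± 0.08 (edgeR FDR 0.00123) and *Lamtor3*, one of the Ragulator subunits, by 0.34 ± 0.06 (edgeR FDR 0.00195). The 3 lower genes were *Sesn2*, *Mlst8* and *Lamtor4*, with log2 fold changes of -0.34, -0.32 and -0.29 (edgeR FDRs 0.0136, 0.0193 and 0.0117).

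ATF4 is the transcription factor that amino acid shortage induces, and the transporter genes *Slc3a2*, *Slc7a5*, *Slc7a1* and *Slc38a2* are known among its targets. Of 17 tested genes of the ATF4 response list, which holds no transporter, edgeR called 5 higher and 0 lower (29.4% called, beside 17.5% of all genes), and the list's median was 0.195 on the log2 scale. At an unadjusted p below 0.05 there were 9 higher and 2 lower, DESeq2 and limma-voom gave 5 and 0, and limma-voom with quality weights gave 9 and 3. Those that rose include the serine synthesis genes *Phgdh*, from 0.482 ± 0.0873 to 1.99 ± 0.0578 CPM (SD, n = 3, log2 fold change 2.04 ± 0.24 SE, edgeR FDR 4.99e-05), and *Psat1* (log2 fold change 0.93 ± 0.13 SE, edgeR FDR 0.000188). The proline synthesis gene *Aldh18a1* had a log2 fold change of 0.81 ± 0.12 (edgeR FDR 0.000518) and asparagine synthetase (*Asns*) of 0.44 ± 0.11 (edgeR FDR 0.0118). Of the 4 transporter targets named, *Slc3a2* fell, and *Slc7a5*, *Slc7a1* and *Slc38a2* had negative log2 fold changes that did not pass the test. These 4 are not a full list of ATF4 targets among the members, and *Slc7a1* and *Slc38a2* were named after their values were seen. Their shared sign is therefore not a result about ATF4 targets. Of the other members, *Slc1a4*, *Slc1a5* and *Slc7a3* had positive log2 fold changes of 0.18, 0.07 and 0.50. These did not pass the test either (edgeR FDRs 0.797, 0.561 and 0.691) and were also chosen after their values were seen. Among all 33 tested members, 16 had a positive log2 fold change. Of 19 cytosolic aminoacyl-tRNA synthetases 1 was called (5.26%), *Sars*, with a log2 fold change of 0.25 ± 0.06 (edgeR FDR 0.0119).

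Of 19 tested genes of amino acid use in macrophages 3 were higher and 5 lower (42.1% called), with a median of -0.03. The spermidine synthase gene *Srm* fell by 0.64 ± 0.10 (SE, edgeR FDR 0.000700) on the log2 scale and glutamine synthetase (*Glul*) by 0.30 ± 0.06 (edgeR FDR 0.00413). Mitochondrial arginase (*Arg2*) fell by 0.81 ± 0.19 (edgeR FDR 0.0101) and proline dehydrogenase (*Prodh*) by 0.55 ± 0.14 (edgeR FDR 0.0121). The 3 higher genes were *Sms*, *Got1* and *Got2*, with log2 fold changes of 0.31, 0.23 and 0.20 (edgeR FDRs 0.0263, 0.0229 and 0.0479). As a reference for the cell division that also differed, the median over the 13 cell division genes was 1.74 on the log2 scale, beside -0.00147 for the tested transporter members. Because the members moved in both directions, these medians say nothing on the part of cell division in the transporter differences. That part was not tested.

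**Figure D5:**
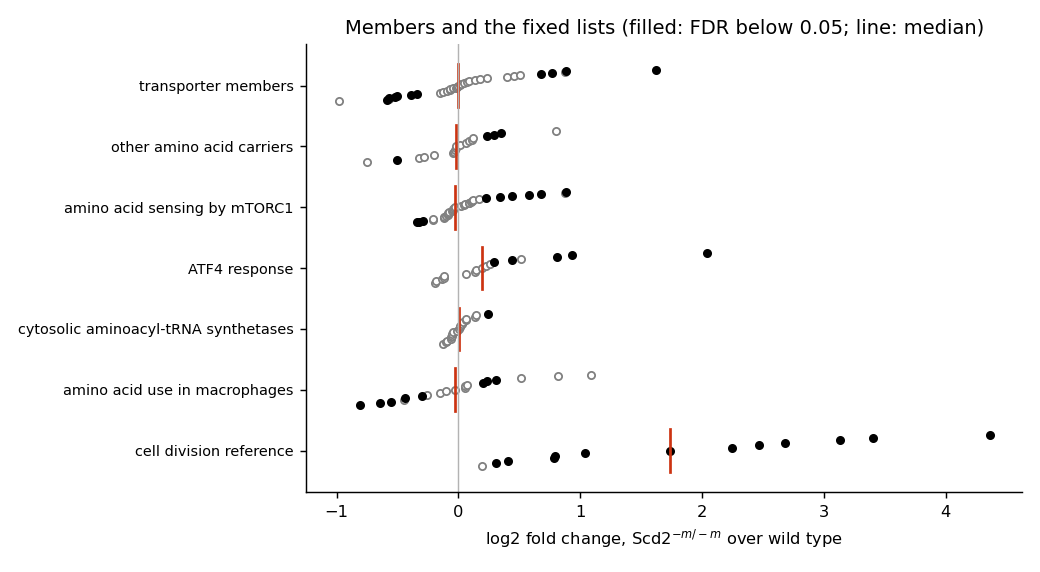
Log2 fold change (x axis, *Scd2*-m/-m over wild type) of every tested gene in the transporter members and in 6 gene lists, with filled points for an FDR below 0.05 and a line at each list's median. The median lies near 0 for the members, at 0.195 for the ATF4 response and at 1.74 for the cell division genes.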

How the data were processed

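RNA of unstimulated BMDMs was analysed in 3 wild-type and 3 *Scd2*-m/-m libraries, grouped by the genotype in their titles. The authors aligned reads with STAR to the Ensembl release 76 primary assembly of the mouse genome (GRCm38) and deposited unnormalized counts of each gene as whole numbers. The sources used here name neither a counting tool nor its use of strand. Even numbers made 60.9% to 64.9% of the counts from 1 to 20, and what 1 count stands for is not known. A second deposited table holds the comparison made by the authors (log2 fold changes, confidence limits, p-values, statistics and log2 expression per library), which was not used.

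Of 40757 entries, 276 repeated ones were removed. Exonic length and coordinates came from GENCODE M21 (GRCm38, 99.7% of genes). The test was edgeR 4.0.16 (filterByExpr, TMM, glmQLFit with robust estimation, glmQLFTest) in R 4.3.3, with limma 3.58.1 and statmod 1.5.0, Benjamini-Hochberg adjustment and an FDR threshold of 0.05, checked on simulated counts. The standard error is the log2 fold change divided by the square root of the F statistic. Ratios of levels per kb were compared by exact permutation of the 6 libraries, two-sided. The alternatives were DESeq2 1.42.0, limma-voom (also with quality weights), RLE, upper-quartile or no factors, other filters, a block by replicate number, each library left out, halved counts, other thresholds and the length of the longest transcript.

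The members and lists were chosen with earlier results of these data known. Named genes are every called member, the member of each family with the highest level per kb, *Slc3a2* with 4 light chains, *Scd2*, and in each list the 4 or fewer called genes of smallest p. *Slc7a1*, *Slc38a2*, *Slc38a7*, *Slc38a9*, *Slc6a8*, *Oxa1l*, *P2rx6* and the other genes named in passing are not covered by it, and their choice came after their values were seen. *Slc66a1* and *Mars1* of the lists matched no gene of the table. A further gene of the Slc7 family is not reported here.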

Additional observations from a re-analysis of the deposited data

How the results depend on the processing

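Of the 10 calls, 6 held in the main test and all 16 alternative fits. Leaving out a library gave between 6 and 11 calls, between 1 and 5 higher and between 5 and 6 lower. An FDR threshold of 0.01 left 2 higher. Adding an absolute log2 fold change above 0.58 left 5 calls, 1 of them lower. Above 1, there was 1 call, higher, and 0 lower. Above 2, the size the study used, there were 0 calls, 0 higher and 0 lower. The cause of these drops is the stricter threshold.

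With the replicate number as a block there were 12 calls (5 higher and 7 lower). *Slc7a8* was then called at a log2 fold change of -0.95 (edgeR FDR 5.71e-07). The replicate block ended no call among the 10. Deviations of same-numbered libraries from their genotype's mean had correlations of 0.053, -0.02 and 0.04. All were under 0.1, the limit set for treating the numbers as pairs, and the labels give no pairing. Wild-type libraries 1 and 3 correlated best with their own number, and wild-type library 2 with *Scd2*-m/-m library 3 (0.041).

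With limma-voom and quality weights *Slc38a10* turned to 0.0091. *Slc6a8*, not called in the main test, was called with the block (0.24, FDR 0.0164), with no filter on low counts (0.23, FDR 0.00750), with limma-voom and quality weights (0.31, FDR 0.00308) and without wild-type library 1 (0.35, FDR 0.00445). *Slc6a6* passed the threshold with quality weights at -0.19 (FDR 0.00653) and *Scd2* at -0.82 (FDR 0.0215). *Slc7a5* lay between -0.15 and 0.033 when a library was left out, turning to 0.00020 without wild-type library 2 and to 0.033 without *Scd2*-m/-m library 3. The cause was not tested. With the length of the longest transcript the summed level of the 62 carriers was 1035 in wild-type and 869.9 CPM per kb in *Scd2*-m/-m BMDMs. The 30 untested members had too few counts to pass the filter, for a reason that was not tested.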

Other observations

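On chromosome 8 the fall of *Slc7a6* and *Slc7a6os* lies in a stretch where both neighbouring genes were also lower, chosen after their values were seen. *Prmt7*, an arginine methyltransferase gene, starts at the base next to *Slc7a6os* on the other strand (chr8:106210936-106252794). It was at 14.6, 16.4 and 13.8 CPM in wild-type and 10.2, 8.81 and 8.10 CPM in *Scd2*-m/-m libraries, without overlap (log2 fold change -0.72 ± 0.11 SE, edgeR FDR 0.000335). *Pla2g15*, a lysosomal phospholipase gene 4141 bases from *Slc7a6* (chr8:106150399-106164715), was at 243 ± 17.6 and 205 ± 5.17 CPM (SD, n = 3, log2 fold change -0.25 ± 0.06 SE, edgeR FDR 0.0163). Why these 4 genes fell was not tested.

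Some untested members had counts in few libraries. *Slc6a20a* had 0 counts in all wild-type libraries and 4, 2 and 4 in the *Scd2*-m/-m libraries, *Slc6a17* had 18 counts in *Scd2*-m/-m library 2 and between 0 and 9 elsewhere, and *Slc38a3* had 16 in *Scd2*-m/-m library 3 and at most 3 elsewhere. These genes were chosen after their values were seen and have no test.

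In 8 of the 33 tested members (24.2%), *Slc1a5*, *Slc3a2*, *Slc7a8*, *Slc38a2*, *Slc43a3*, *Slc6a13*, *Slc7a6* and *Slc43a2*, library 1 had the highest level in both genotypes, beside 16.2% of all genes tested. The creatine carrier gene *Slc6a8* was at 97.0, 80.9 and 73.6 CPM in wild-type and 101, 103 and 91.5 CPM in *Scd2*-m/-m libraries, where only wild-type library 1 lay above a *Scd2*-m/-m library (log2 fold change 0.23 ± 0.09 SE, edgeR FDR 0.09997, called in 4 of 16 alternative fits).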
